A study of Rattus norvegicus with 60 samples.

Results

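The nuclear genes of oxidative phosphorylation were examined in 3 brain regions of the rat, with 60 Affymetrix arrays and 1 array per tissue sample. A gene was a member if its symbol began with Ndufa, Ndufb, Ndufc, Ndufs, Ndufv, Sdha to Sdhd, Uqcr, Cox4 to Cox8 or Atp5, and each gene was represented by its probe set with the highest mean over all arrays. This gave 90 of the 14217 genes that the array annotation names without ambiguity. By the complex they were grouped with, 34 went to complex I, 4 to complex II, 7 to complex III, 19 to complex IV and 16 to complex V, and 10 were assembly factors that the names also take in. Not all of these are subunits: complex IV includes the pseudogene Cox6c-ps1 and the supercomplex factor Cox7a2l, and complex V the ATPase inhibitor Atp5if1. Membership went by names alone, while the probe set of each gene was picked by its measured mean. The rule was set with earlier results of these data known. A further 7 probe sets match the rule with at least 1 of several symbols and were left out. For Cox5a this removed a bright probe set and a dimmer one stayed. Atp5mc1, Atp5mc2, Cox7a2, Uqcrb, Ndufs5 and Ndufa10 are for this reason not among the members.

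All rats were of the strain given as SD and were treated for 21 days. Lithium chloride (LiCl), a mood stabilizer, was given at 0.2% in the chow and compared with plain chow, called the chow vehicle. Lamotrigine, an anticonvulsant and mood stabilizer, was given at 30 mg/kg under the skin once a day and compared with injection of its vehicle. Each of the 4 treatments held 5 arrays in each of the hippocampus, the cortex and the striatum, which makes 12 groups. The labels also carry a tissue field that says mouse and a time field that says constant delivery, whereas the organism, the strain and the array are those of the rat and the design text gives daily injection. Numbers in the sample descriptions, read as animal numbers, name 24 animals, most of which gave more than 1 region.

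Oxidative phosphorylation is the last stage of respiration in the inner mitochondrial membrane. Complex I takes electrons from NADH and complex II from succinate, complex III passes them to cytochrome c, complex IV hands them to oxygen, and complex V (ATP synthase) uses the proton gradient built on the way to make ATP. Most subunits are encoded in the nucleus, a few core subunits in the mitochondrial genome, and dedicated assembly factors put the parts together without staying in the finished enzyme. In the brain most ATP comes from this pathway, and a large part of it drives the ion pumps of neurons. Some complex IV subunits exist as a general form and as a second form that is typical of heart and skeletal muscle or of testis.

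The regions carried the markers of their labels. Of 10 markers of medium spiny neurons, the main neurons of the striatum, 10 were higher in the vehicle striatum than in the cortex (median log2 difference 4.09) and 10 higher than in the hippocampus (4.61). Of 8 markers of hippocampal neurons 5 were higher and 1 lower in the hippocampus than in the cortex, and of 6 cortical markers 4 were lower in the hippocampus and 5 lower in the striatum. These are pieces of whole tissue, so fewer cells of a type and less RNA per cell cannot be told apart in any value given here.

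The members were bright and steady. Levels are log2 intensities, and differences are on the log2 scale with the SE of the fit. Of the 90 members 67 had a mean above 10 over all arrays, from 13.10 for Cox4i1, the general form of a complex IV subunit, to 3.95 for the testis form Cox7b2. The brightness of a probe set depends on its probes as well as on the RNA, so these levels do not rank the genes. By complex the median level was 11.05 for complex I, 11.10 for complex II, 11.70 for complex III, 11.29 for complex IV and 12.03 for complex V, and 8.93 for the assembly factors. Means under 6 were found for Cox4i2, Cox6b2, Cox6c-ps1, Cox7b2, Cox8b and Ndufaf1, and differences in these dim members carry more noise. The SD within a group had a median of 0.0837 over the members, against 0.146 over all probe sets tested and 0.102 over the 2391 with a mean above 10. Cox4i1 had the smallest SD, 0.038, and Cox8b the largest, 0.667. Deviations from the group mean correlated over the 60 arrays with a median r of 0.461 for the 924 pairs of members in the same complex and 0.373 for the 3081 pairs from different complexes, a description of arrays that share background and normalization.

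Of 10 central subunits chosen to show levels, 6 were not called between regions. In the 10 vehicle arrays of each region, Ndufs1, which holds iron-sulfur clusters of complex I, averaged 10.67 in the hippocampus, 10.65 in the cortex and 10.63 in the striatum. Sdha, the succinate-oxidizing subunit, averaged 11.15, 11.17 and 11.17, in the same order. Uqcrc1, a core protein of complex III, lay at 11.39, 11.44 and 11.45. The flavin-binding subunit Ndufv1 (11.09, 11.08 and 11.05) and the iron-sulfur subunits Sdhb (11.38, 11.36 and 11.34) and Uqcrfs1 (11.53, 11.45 and 11.42), the last with the widest range of the 6, complete this set, and none of the 6 was called between any 2 regions. Of the other genes chosen to show levels, Atp5f1b, the catalytic subunit of ATP synthase, lay at 13.03, 13.03 and 13.11 and was called higher in the striatum than in the cortex (adjusted p = 0.00133). Its partner Atp5f1a lay at 12.25, 12.08 and 12.21, lowest in the cortex (adjusted p = 0.000254 against the hippocampus), and Cox4i1 at 13.06, 13.15 and 13.11, highest there (adjusted p = 2.51e-05). Cox5a, read here from a dim probe set, lay at 7.42, 7.30 and 7.19 and was called between hippocampus and striatum (adjusted p = 0.00939). Core subunits outside this set that differed between regions include Ndufs3 (striatum minus hippocampus 0.37), Uqcrc2 (striatum minus hippocampus -0.17) and Sdhd (striatum minus cortex 0.35).

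LiCl was compared with chow vehicle in each region to see which RNA levels differed after the drug. In the cortex 5 of the 90 members passed an adjusted p under 0.05 over all 31042 probe sets: 2 rose, Atp5me and Cox6c, and 3 fell, Ndufaf3, Ndufs3 and Ndufa11. Of all probe sets 5.22% were called higher and 8.2% lower, and of the 2391 bright ones 0.962% and 15.5%. The members' shares, 2.22% and 3.33%, were thus below the background of all probe sets in both directions, and for rises above that of bright ones. The differences were small, 1.08-fold to 1.17-fold. None passed the test when the spread of each array (the interquartile range of its log2 values) was a covariate, where limma called 0 of the 31042 and 5 members had an unadjusted p under 0.05. Leaving out LiCl replicate 1, 3 or 5, or chow vehicle replicate 4, took the count of 5 to 2, and leaving out chow vehicle replicate 2 or 3 took it to 3.

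Ndufaf3, an assembly factor of complex I, gave 9.18, 9.25, 9.25, 9.29 and 9.21 in the 5 LiCl arrays of the cortex and 9.46, 9.52, 9.46, 9.40 and 9.47 in the 5 chow vehicle arrays. All LiCl values lay below all chow vehicle values. The fall was 0.22 ± 0.05 (1.17-fold lower, adjusted p = 0.00726), and it passed with any 1 array left out. With quantile normalization, which gives all arrays the same distribution, it was smaller, -0.12 with adjusted p = 0.144. The injection vehicle and lamotrigine cortex averaged 9.37 and 9.38, between both groups.

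Ndufs3, a core subunit of the arm of complex I that reaches into the matrix, gave 10.57, 10.69, 10.65, 10.73 and 10.60 with LiCl and 10.74, 10.83, 10.78, 10.90 and 10.85 with chow vehicle. The groups came close but did not overlap, and the fall was 0.17 ± 0.05 (1.13-fold lower, adjusted p = 0.0217). Ndufa11, an accessory subunit of the membrane arm, gave 10, 10.13, 10.01, 10.01 and 10.08 against 10.13, 10.22, 10.27, 10.23 and 10.24, so the groups met at 10.13. It fell by 0.17 ± 0.05 (1.13-fold lower, adjusted p = 0.0428). With quantile normalization adjusted p was 0.221 for Ndufs3 and 0.397 for Ndufa11.

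Atp5me, the membrane subunit e of ATP synthase that holds its dimers together, gave 10.65, 10.72, 10.77, 10.70 and 10.71 with LiCl and 10.45, 10.54, 10.60, 10.53 and 10.54 with chow vehicle. All LiCl values were higher. The rise was 0.17 ± 0.05 (1.13-fold, adjusted p = 0.0212), and a second, dimmer probe set of the gene also rose, by 0.33 (adjusted p = 0.0411). It was the member that passed with quantile normalization too (0.25, adjusted p = 0.00990). Cox6c, a subunit of complex IV, gave 12.95, 12.97, 12.92, 12.96 and 12.94 against 12.87, 12.85, 12.83, 12.88 and 12.78. Here too no value overlapped, and the rise of 0.11 ± 0.03 (1.08-fold, adjusted p = 0.0397) came with a small spread in both groups. Its call was not stable, and was kept in 4 and lost in 13 of 17 alternatives (adjusted p up to 0.494).

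The injection vehicle cortex stood beside the LiCl cortex for 3 of these 5 genes. Its mean was 10.64 for Ndufs3, 10 for Ndufa11 and 12.94 for Cox6c, against LiCl means of 10.65, 10.05 and 12.95, and each of the 3 was also called between the injection and the chow vehicle. Both comparisons use the same chow vehicle arrays, and the Cox6c call between the vehicles was lost in 12 of 17 alternatives. For Atp5me the injection vehicle mean was 10.52, close to chow vehicle at 10.54.

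**Figure D1:**
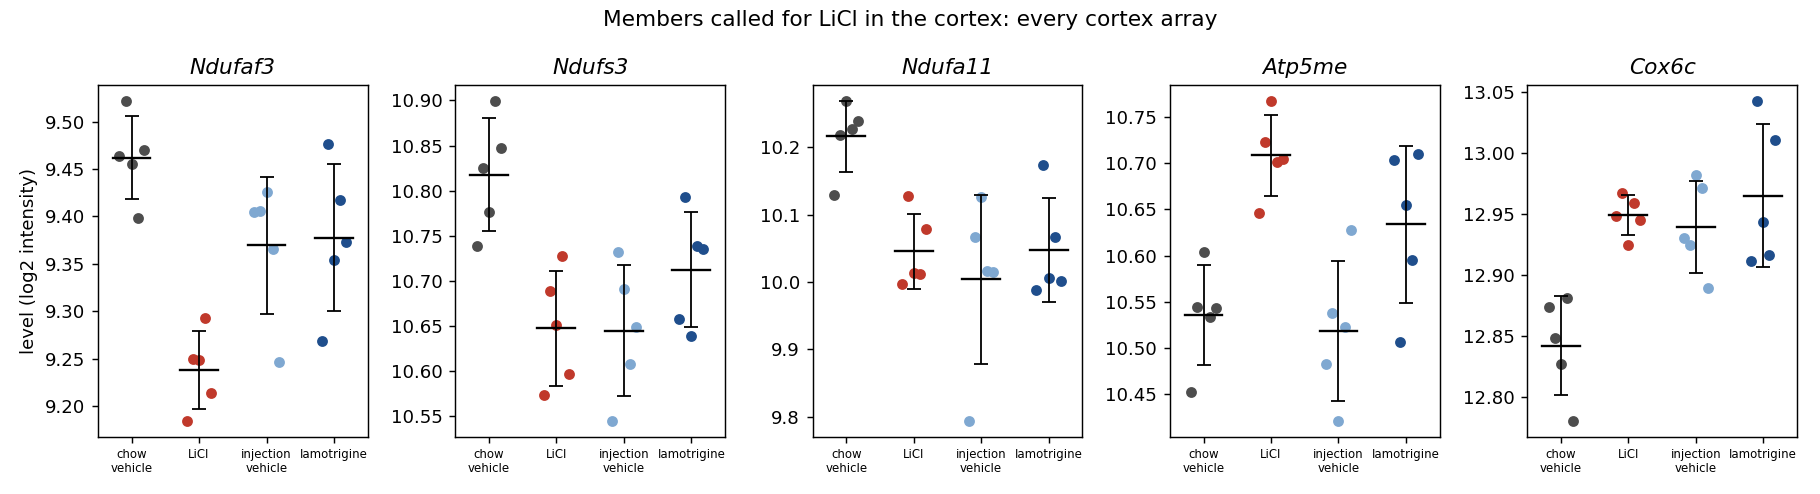
Log2 intensity of the 5 members called between LiCl and chow vehicle in the cortex, in the 4 cortex groups; each point is 1 array (n = 5), the bar is the mean and the error bar the SD. Ndufaf3, Atp5me, Ndufs3 and Cox6c do not overlap between LiCl and chow vehicle, and Ndufa11 meets at 10.13.

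Promoters of 4 of these 5 genes are shown because the genes moved in different directions in the same tissue. Sequences are from RefSeq on the rat assembly GRCr8, from 250 bases before to 50 after the start of the gene, 5′ to 3′ on its own strand, and 82 of the 90 members had an entry; Cox6c had none. Capitals mark matches, on either strand, to the NRF-1 motif CGCATGCG, the GABPA motif CCGGAAG, the ERR alpha motif TCAAGGTCA, the YY1 motif AAGATGGC, the GC box GGGCGG or the TATA box TATAAA. Atp5me lies at chr14:1464610-1464909 on the plus strand, Ndufa11 at chr9:1637364-1637663 on the plus strand, Ndufs3 at chr3:97339605-97339904 on the minus strand and Ndufaf3 at chr8:118141674-118141973 on the minus strand.
Atp5me: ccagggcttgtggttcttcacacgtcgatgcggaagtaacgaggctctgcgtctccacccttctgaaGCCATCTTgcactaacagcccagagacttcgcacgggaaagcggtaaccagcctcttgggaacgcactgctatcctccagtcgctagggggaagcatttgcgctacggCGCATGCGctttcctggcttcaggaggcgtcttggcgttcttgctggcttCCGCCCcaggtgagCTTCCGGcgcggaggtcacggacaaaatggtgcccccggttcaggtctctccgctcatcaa
Ndufa11: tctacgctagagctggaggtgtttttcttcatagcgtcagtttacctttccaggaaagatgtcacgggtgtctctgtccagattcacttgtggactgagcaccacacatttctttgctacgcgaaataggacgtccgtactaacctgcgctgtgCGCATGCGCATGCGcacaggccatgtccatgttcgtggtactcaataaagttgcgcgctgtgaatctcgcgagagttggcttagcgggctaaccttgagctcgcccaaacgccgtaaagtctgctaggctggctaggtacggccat
Ndufs3: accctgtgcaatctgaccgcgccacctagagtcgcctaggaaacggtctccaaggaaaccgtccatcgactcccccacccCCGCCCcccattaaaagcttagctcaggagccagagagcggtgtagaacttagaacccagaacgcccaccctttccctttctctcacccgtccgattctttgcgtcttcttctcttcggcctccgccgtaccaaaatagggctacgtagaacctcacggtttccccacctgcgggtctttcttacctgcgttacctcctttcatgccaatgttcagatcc
Ndufaf3: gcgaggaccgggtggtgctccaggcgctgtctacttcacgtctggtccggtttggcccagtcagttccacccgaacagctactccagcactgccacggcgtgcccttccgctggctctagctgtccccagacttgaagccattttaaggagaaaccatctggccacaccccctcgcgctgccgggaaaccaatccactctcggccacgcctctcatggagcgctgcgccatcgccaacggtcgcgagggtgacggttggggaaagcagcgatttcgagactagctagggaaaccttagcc

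NRF-1, GABPA, ERR alpha and YY1 are transcription factors known for their role at mitochondrial genes. In these windows Atp5me held matches to NRF-1, GABPA, YY1 and the GC box, Ndufa11 held 2 overlapping NRF-1 matches, Ndufs3 held a GC box and Ndufaf3 held no match. Over the members, 8 of 82 promoters (9.76%) held the NRF-1 motif against 1.66% of all 33469 promoters of this length, 25 (30.5%) the GABPA motif against 8.75%, 17 (20.7%) the YY1 motif against 3.17% and 2 (2.44%) the ERR alpha motif against 0.433%. The GC box was found in 38 (46.3%) against 33.1%, and the TATA box in 8 (9.76%) against 14.2%. The median GC content was 56.0% in the members and 51.7% in all promoters. A match says that these letters stand in the window and nothing about binding.

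By complex, the signs of the LiCl differences in the cortex depended on the scaling of the arrays. Complex I subunits were lower in 27 of 34 cases (median -0.06), but 19 of 34 were higher both with quantile normalization and with array spread as a covariate. The 10 assembly factors were lower in 10 of 10 cases (median -0.15), in 8 with quantile normalization and in 9 with the spread covariate. Complex IV members were higher in 13 of 19 cases (median 0.04) and in 11 with quantile normalization. Over all 90 members 55 were lower (61.1%; median -0.03), while 74.4% of the 2391 bright probe sets and 50.2% of all were lower. With quantile normalization 50 members were higher and with the spread covariate 53. Groups did not overlap for 7 members (7.78%), against 11.8% of all probe sets.

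Other measures moved with the LiCl cortex. Array spread, taken as the distance between the upper and lower quartiles of the log2 values, was 3.37 ± 0.06 with LiCl and 3.58 ± 0.02 with chow vehicle. The mean level of 10 neuron markers was 11.61 against 11.73 and that of 6 cortical neuron markers 8.34 against 8.66, with 3 of the 6 lower by test (median -0.36). The part of these in the member differences was not tested. Array spread nearly followed the treatment here, so a fit with both cannot separate them. The limma fit with the spread covariate lost all 5 calls (adjusted p from 0.494 to 0.827). In that fit the differences were 0.12 for Cox6c, 0.09 for Atp5me, -0.15 for Ndufaf3, -0.11 for Ndufs3 and -0.07 for Ndufa11.

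Genes that work with the members but lie outside the naming rule were read from fixed lists in the same comparison. Of 19 regulators of mitochondrial biogenesis 7 fell and 0 rose in the LiCl cortex (median -0.18), among them the coactivator Ppargc1a (-0.28, adjusted p = 0.0258), the mitochondrial DNA-packaging factor Tfam (-0.26, adjusted p = 0.00572), the nuclear receptor Esrrg (-0.35, adjusted p = 0.0181) and Yy1 (-0.20, adjusted p = 0.0149). Of 15 electron carriers and further subunits 4 fell: Coq2, Coq5 and Coq8a of coenzyme Q synthesis (-0.38, -0.36 and -0.34) and Higd2a (-0.23). Of 35 further assembly factors 5 fell, Sco1, Ttc19, Atpaf2, Ecsit and Lrpprc (-0.31 to -0.16). In the tricarboxylic acid cycle, which supplies the electrons, 1 of 16 fell, Idh3b (-0.18), and of 18 mitochondrial carriers and energy transfer genes 5 fell, including the creatine kinase Ckmt1 (-0.19) and the calcium uniporter Mcu (-0.37). Of 15 glycolysis genes and 10 antioxidant enzymes 0 were called by limma, with 1 and 3 at an unadjusted p under 0.05. These shares stand against 8.2% of all probe sets called lower and 15.5% of bright ones. With quantile normalization 1 biogenesis regulator and 3 electron carriers were called and 0 in the other 5 lists named here, and with the spread covariate limma called 0 genes of any list, with 1 biogenesis regulator and 2 electron carriers at an unadjusted p under 0.05.

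In the hippocampus of LiCl rats 0 of 90 members were called by limma, with 2 at an unadjusted p under 0.05, where 0.235% of all probe sets were called. The smallest p-values were those of the complex II assembly factors Sdhaf4 (0.19 ± 0.07, adjusted p = 0.210) and Sdhaf2 (0.14 ± 0.06, adjusted p = 0.277) and of the ATP synthase subunit Atp5mf (0.08 ± 0.04, adjusted p = 0.330). Values were higher for 56 members (median 0.02), but for 16 with array spread as a covariate. In the striatum limma again called 0, with 6 at an unadjusted p under 0.05, and 0% of all probe sets. The complex IV subunit Cox6a1 (0.16 ± 0.05, adjusted p = 0.228), the small ATP synthase subunit Atp5mk (0.11 ± 0.04, adjusted p = 0.298) and the complex III subunit Uqcrq (0.12 ± 0.04, adjusted p = 0.314) came nearest. In the striatum 52 members were higher (median 0.02), but 42 with arrays centred on their medians and 41 with the spread covariate. The 95% interval of the LiCl difference lay within 1.2-fold either way for 80 members in the hippocampus, 69 in the cortex and 78 in the striatum.

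Whether the LiCl difference itself varied between the 3 regions was tested in 1 fit of all 60 arrays. It did for 10 of 90 members (11.1%), against 17.2% of all probe sets. The smallest adjusted p was that of Ndufa2, an accessory subunit of complex I, at 0.04 in the hippocampus, -0.13 in the cortex and 0.16 in the striatum (adjusted p = 0.0109). Atp5me differed by -0.07, 0.17 and 0.06 (adjusted p = 0.0124), Ndufaf3 by 0.04, -0.22 and -0.07 (adjusted p = 0.0148) and Ndufs3 by 0.07, -0.17 and 0.00 (adjusted p = 0.0241). The other members called were Ndufa11, Ndufa5 and Ndufb3 of complex I, the assembly factors Sdhaf2 and Sdhaf4, and Cox6c-ps1, a dim probe set for a pseudogene related to Cox6c. With quantile normalization 2 members were called and with the spread covariate 0 by limma, where 10 had an unadjusted p under 0.05. Without cortex LiCl replicate 5 the count was 4, without cortex LiCl replicate 1 or cortex chow vehicle replicate 4 it was 5, and without hippocampus LiCl replicate 5, hippocampus chow vehicle replicate 2 or cortex chow vehicle replicate 2 or 5 it was 6.

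Lamotrigine was compared with its own injection vehicle. In each of the 3 regions 0 of 90 members were called by limma, with 8 members at an unadjusted p under 0.05 in the hippocampus, 2 in the cortex and 1 in the striatum. Over all probe sets 0.00322% were called in the hippocampus, 0% in the cortex and 0% in the striatum. The 95% interval lay within 1.2-fold either way for 78 members in the hippocampus and 81 in each of the cortex and the striatum. Groups did not overlap for 0 members in the hippocampus, 0 in the cortex and 1 in the striatum (1.11%), Sdhd, a membrane anchor of complex II, against 2.14%, 0.763% and 0.557% of all probe sets.

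In the lamotrigine hippocampus the assembly factor Sdhaf2 had the smallest p (-0.25 ± 0.06, adjusted p = 0.209), followed by the core protein Uqcrc2 (-0.11 ± 0.04, adjusted p = 0.413) and the small subunit Uqcr11 (-0.10 ± 0.04, adjusted p = 0.413), both of complex III. A second, dimmer probe set of Sdhaf2 went the other way (0.10, adjusted p = 0.735). Values were lower for 84 of 90 members (93.3%; median -0.05) against 66.3% of bright probe sets, but 48 members were higher with array spread as a covariate. In the cortex Atp5me (0.12 ± 0.05, adjusted p = 0.817), the supercomplex factor Cox7a2l (0.10 ± 0.04, adjusted p = 0.849) and Atp5f1a, the partner of the catalytic subunit of ATP synthase (0.12 ± 0.06, adjusted p = 0.858), came nearest, with 63 members higher (median 0.02) and 68 to 74 higher under the 3 other scalings. In the striatum these were Sdhd (0.10 ± 0.05), the complex I subunit Ndufb11 (0.13 ± 0.07) and the complex I subunit Ndufa3 (0.09 ± 0.05), each with adjusted p = 0.997, and 73 members were higher (median 0.04), 72 to 77 under the other scalings. Whether the lamotrigine difference varied between regions was tested as for LiCl, and 0 members and 0% of all probe sets were called by limma, with 9 members at an unadjusted p under 0.05.

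**Figure D2:**
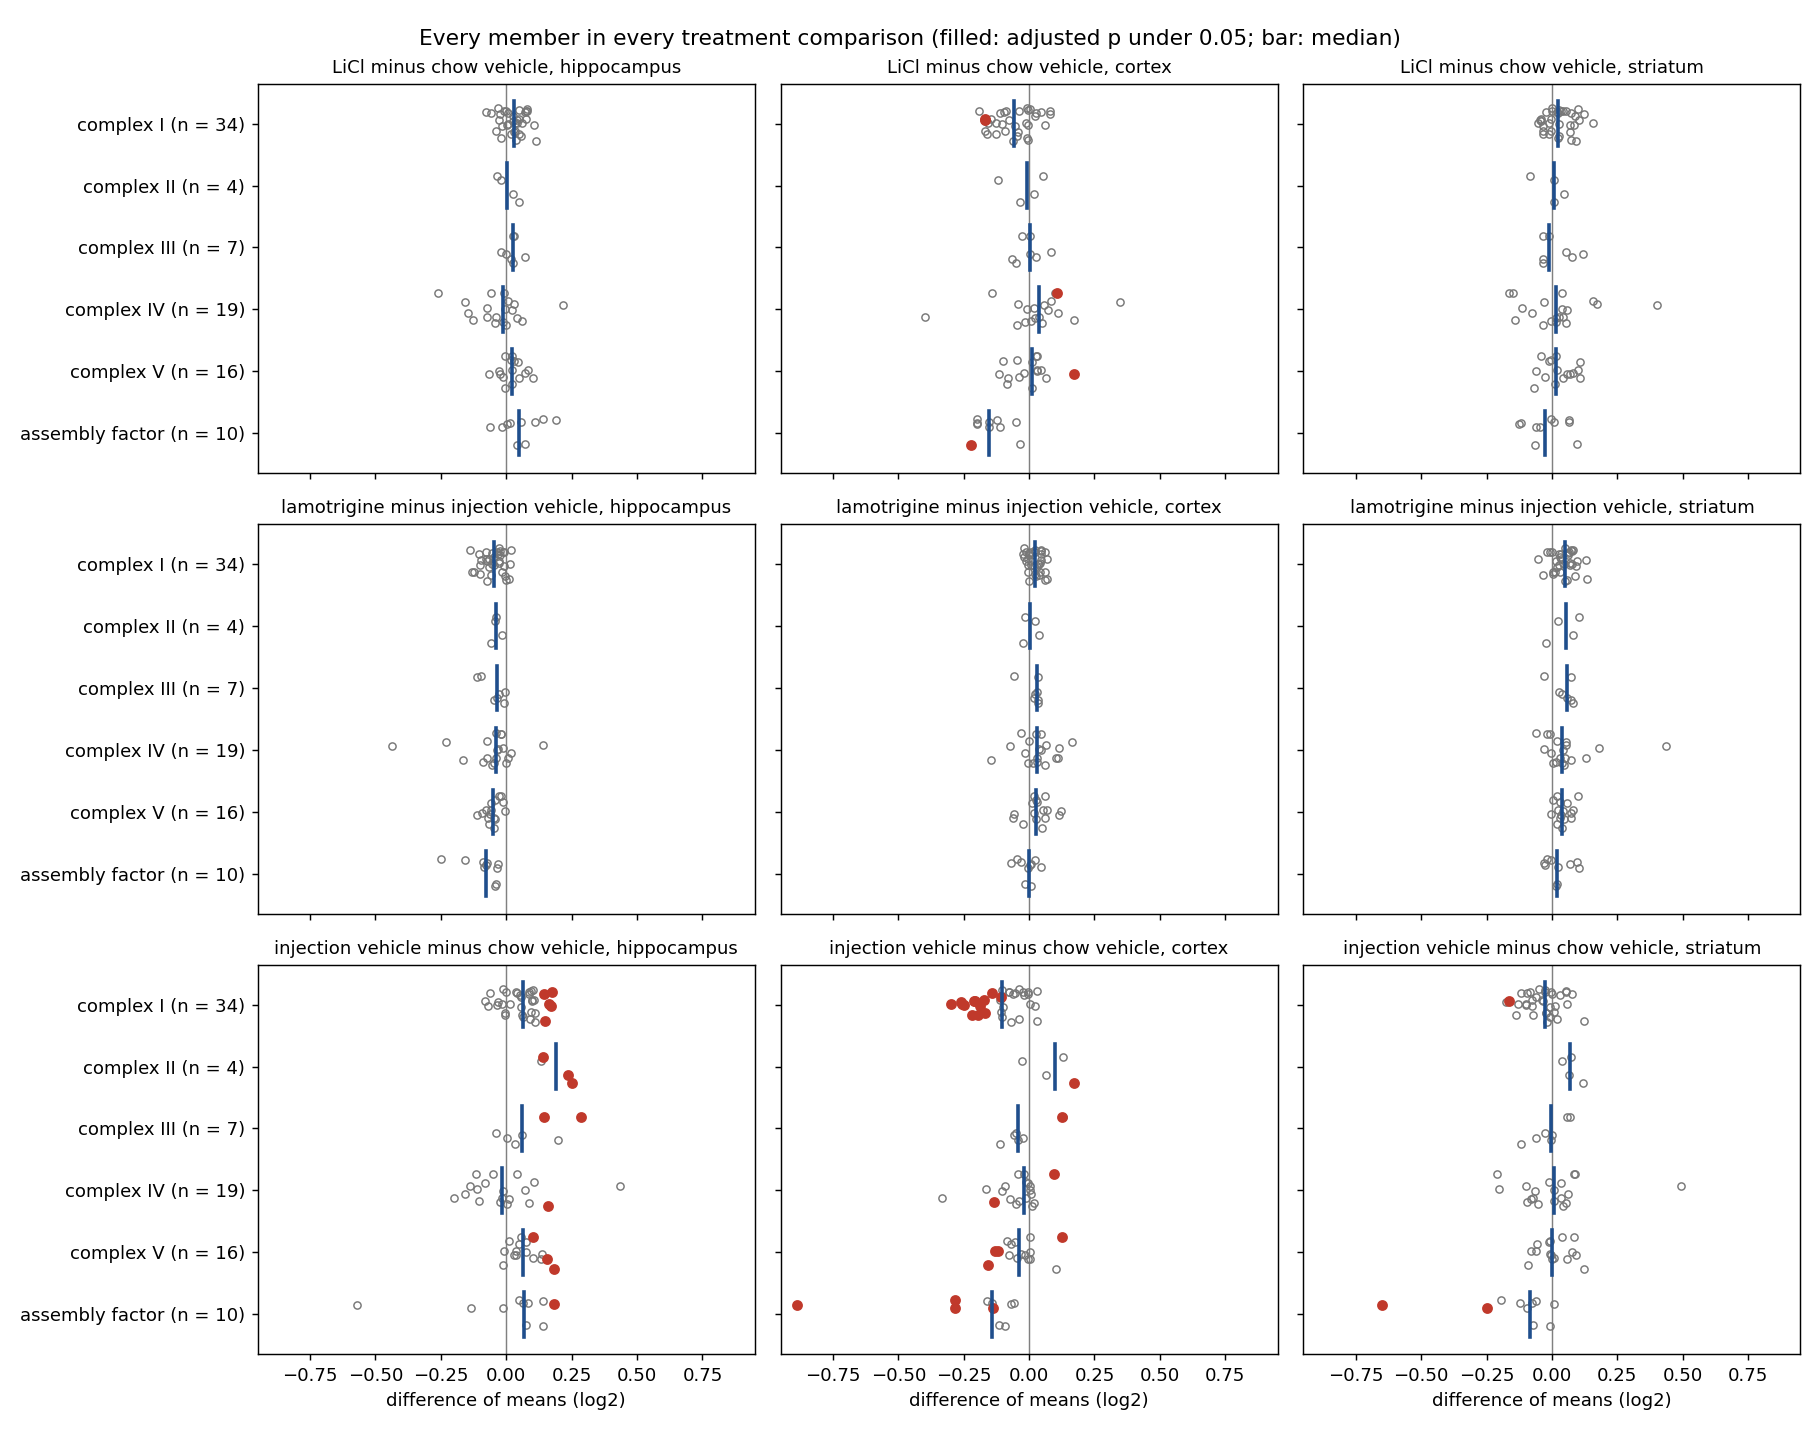
Log2 difference of each of the 90 members, ordered by complex, for LiCl and lamotrigine against their vehicles and for the injection against the chow vehicle (3 regions each, n = 5 per group); filled red points have an adjusted p under 0.05 and the blue bar is the median of the complex. Red points stand in the LiCl cortex (5) and in the vehicle comparison (15, 25 and 3), and in no lamotrigine panel. The sign of the median over all members turns with the scaling of the arrays for LiCl in all 3 regions and for lamotrigine and the vehicles in the hippocampus.

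Within a region, most calls were made between the injection and the chow vehicle. Injection vehicle and chow vehicle rats differ in the route of dosing and in the arm of the study, which cannot be told apart. In the hippocampus limma called 15 of 90 members higher in injection vehicle rats and 0 lower, with 24 at an unadjusted p under 0.05 in either direction, against 10.9% of all probe sets called higher and 7.6% lower. The members' 16.7% was close to the 17.4% of bright probe sets that were called higher. They came from complex II (3 of 4 members), complex I (5), complex V (3), complex III (2), complex IV (1) and the assembly factors (1). Uqcrc2, a core protein of complex III, led them.

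Uqcrc2 gave 11.98, 11.91, 11.98, 12.01 and 11.96 in the injection vehicle hippocampus and 11.72, 11.72, 11.60, 11.77 and 11.60 in the chow vehicle hippocampus. All injection vehicle values lay above all chow vehicle values. The rise was 0.28 ± 0.04 (1.22-fold, adjusted p = 8.3e-05), a second probe set rose by 0.55 (adjusted p = 0.000112), and the call held under all alternatives run. Lamotrigine rats, which were injected too, gave 11.92, 11.97, 11.74, 11.85 and 11.83, and the LiCl mean was 11.72.

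Sdha gave 11.30, 11.21, 11.27, 11.41 and 11.21 with injection vehicle and 11.04, 11.10, 10.89, 11.12 and 10.97 with chow vehicle. It did not overlap and rose by 0.25 ± 0.05 (1.19-fold, adjusted p = 0.00232). Sdhc, a membrane anchor of complex II, gave 11.04, 10.88, 11.16, 11.11 and 11.13 against 10.83, 10.90, 10.75, 10.93 and 10.74, where 1 injection vehicle array lay inside the chow vehicle range. It rose by 0.24 ± 0.05 (1.18-fold, adjusted p = 0.00407). With the spread covariate neither passed, at 0.21 for Sdha (adjusted p = 0.264) and 0.15 for Sdhc (adjusted p = 0.490). Lamotrigine means were 11.22 and 11.05 and LiCl means 11.07 and 10.86, so both injected groups were on one side and both chow groups on the other.

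The further rises in the hippocampus were those of Atp5mg, Atp5pf and Atp5f1b of ATP synthase (0.18, 0.16 and 0.10), Ndufa5, Ndufa3, Ndufa9, Ndufa13 and Ndufs4 of complex I (0.17, 0.17, 0.16, 0.15 and 0.14), Ndufa4 of complex IV (0.16), Uqcr11 (0.14), the complex II anchor Sdhd (0.14) and the assembly factor Ndufaf7 (0.18). All 4 complex II genes were higher in injection vehicle rats in the hippocampus under each of the 4 scalings. Over all members 64 were higher (median 0.06; all probe sets -0.02), but 30 with array spread as a covariate. The count of 15 was 7 without injection vehicle replicate 3 or 5, 5 without injection vehicle replicate 4 or chow vehicle replicate 3, and 8 without chow vehicle replicate 1, 2 or 5. It was 5, of which 1 was a fall, when arrays rich in choroid plexus RNA markers were left out, and 1 with the spread covariate. The arrays left out were injection vehicle replicates 1 and 3 and LiCl replicate 2. Marker content and the smaller number of arrays cannot be told apart in that count. Groups did not overlap for 4 members (4.44%), against 12.6% of all probe sets.

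In the same hippocampus comparison 5 of 16 tricarboxylic acid cycle genes rose and 0 fell: Suclg2 (0.32), Pdhx (0.31), Mdh2 (0.17), Sucla2 (0.15) and Pdha1 (0.13). Of 15 electron carriers and further subunits 4 rose, among them cytochrome c1, Cyc1 (0.14), and Etfdh (0.27). Of 15 glycolysis genes 3 fell, Pfkl, Aldoa and Pgam1. The background was the same 10.9% called higher and 7.6% lower, and 17.4% and 8.95% of bright probe sets. Of the tricarboxylic acid cycle genes limma called 0 with the spread covariate and 0 without the choroid-rich arrays (2 and 8 at an unadjusted p under 0.05), and of the electron carriers 0 and 1. The spread of array values was 3.61 ± 0.03 in the injection and 3.48 ± 0.06 in the chow vehicle hippocampus, choroid plexus markers averaged 6.45 ± 1.36 and 5.75 ± 0.51, and 7 of 7 oligodendrocyte markers were higher (median 0.23, 1 called). The part of these in the rises was not tested, and counts without the high arrays and with the spread covariate are given as they stand. Array spread differed between the vehicle groups too, so a fit with both cannot separate them.

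In the cortex 21 members were called lower in injection vehicle rats and 4 called higher (23.3% and 4.44%), against 10% of all probe sets called lower and 8.92% called higher, and 16.9% and 11% of bright ones. Of the falls 13 were of the 34 complex I subunits and 4 of the 10 assembly factors. Complex I subunits were lower in 30 of 34 cases (median -0.10), and in 28 to 34 cases under the other scalings, and the assembly factors in 10 of 10 under every scaling. Groups did not overlap for 19 members (21.1%), against 13.4% of all probe sets.

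Ndufa2 gave 10.65, 10.77, 10.85, 10.69 and 10.73 in the injection vehicle cortex and 11.01, 11.07, 11, 11.04 and 11.05 in the chow vehicle cortex. The groups were well apart, with a fall of 0.30 ± 0.05 (1.23-fold lower, adjusted p = 0.000148). The lamotrigine mean was 10.78 and the LiCl mean 10.91. Ndufs8, a core iron-sulfur subunit of complex I, gave 9.58, 9.73, 9.69, 9.75 and 9.67 against 9.97, 9.94, 9.96, 9.94 and 9.88, again without overlap. It fell by 0.25 ± 0.05 (1.19-fold lower, adjusted p = 0.000735), with means of 9.69 in lamotrigine and 9.83 in LiCl rats.

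Ndufaf1, an early assembly factor of complex I, showed the largest difference, but from a dim probe set. It gave 5.49, 5.16, 6.15, 5.32 and 5.24 with injection vehicle and 6.06, 6.47, 6.29, 6.43 and 6.54 with chow vehicle, with 1 array of the first group inside the range of the second. It fell by 0.89 ± 0.19 (1.85-fold lower, adjusted p = 0.0019). Further falls in the cortex were those of the assembly factors Ndufaf5 (-0.28) and Sdhaf2 (-0.28), the complex I subunits Ndufv3 (-0.26), Ndufab1 (-0.26), Ndufb10 (-0.22), Ndufa11 (-0.21), Ndufa6 (-0.21), Ndufs1 (-0.20), Ndufb5 (-0.19) and Ndufs3 (-0.17), and Atp5f1c of ATP synthase (-0.16). A second, dimmer probe set of Sdhaf2 did not fall here (0.01, adjusted p = 0.953), and 1 of 17 alternatives lost the Sdhaf2 call.

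The 4 rises in the cortex were of genes outside complex I. Atp5f1b gave 13.05, 13.11, 13.10, 13.15 and 13.05 with injection vehicle and 12.98, 12.96, 12.94, 13.03 and 12.91 with chow vehicle, and no value overlapped. It rose by 0.13 ± 0.03 (adjusted p = 0.00965). Sdha (0.17, adjusted p = 0.0260), Uqcr11 (0.13, adjusted p = 0.0131) and Cox6c (0.10, adjusted p = 0.0472) also rose. With arrays centred on their medians none of the 4 passed and 30 members were called lower. Over 17 alternatives Cox6c lost its call in 12, Sdha in 6, and Atp5f1b and Uqcr11 in 2 each.

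Outside the naming rule the cortex comparison gave 5 falls among the 15 electron carriers and further subunits, all in coenzyme Q synthesis: Coq2 (-0.33), Coq7 (-0.26), Coq5 (-0.26), Coq8a (-0.22) and Coq9 (-0.20), and 5 fell with quantile normalization and 3 with the spread covariate. Of 35 further assembly factors 10 fell, among them Cox10 (-0.28) and Bcs1l (-0.25), and 1 rose, Cox11 (0.40). Of 18 carriers and energy transfer genes 5 fell, with Ckmt1 (-0.37), the pyruvate carrier Mpc2 (-0.31) and the creatine kinase Ckb (-0.26) first. The background was 10% of all probe sets called lower and 16.9% of bright ones.

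In the striatum limma called 3 members lower in injection vehicle rats and 0 higher, with 14 at an unadjusted p under 0.05 in either direction, against 3% of all probe sets called lower and 3.83% higher. Ndufa6, an accessory subunit of complex I, gave 11.38, 11.41, 11.27, 11.42 and 11.42 against 11.55, 11.56, 11.50, 11.55 and 11.55. These groups did not overlap and the fall was 0.16 ± 0.04 (1.12-fold lower, adjusted p = 0.0104), with means of 11.39 in lamotrigine and 11.50 in LiCl rats. Ndufaf1 gave 5.56, 4.93, 6.05, 5.61 and 5.52 against 6.26, 5.96, 6.19, 6.40 and 6.10 and fell by 0.65 ± 0.16 (1.57-fold lower, adjusted p = 0.0176), with 1 array overlapping. Ndufaf5 fell by 0.25 ± 0.06 (adjusted p = 0.0204). Without chow vehicle replicate 4 Ndufaf1 did not pass. Ndufaf5 lost its call in 4 of 18 alternatives (adjusted p up to 0.0697), and Ndufa6 kept it in all 18.

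Ndufaf1, Ndufaf5 and Ndufa6 thus fell in both the cortex and the striatum of injection vehicle rats. By number these are the same 10 animals in both regions, so the regions are no separate support. A test of whether the vehicle difference varied between regions called 1 member, Ndufs3 (adjusted p = 0.0452), against 1.88% of all probe sets. For the other 89 members the regions were not shown to differ.

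**Figure D3:**
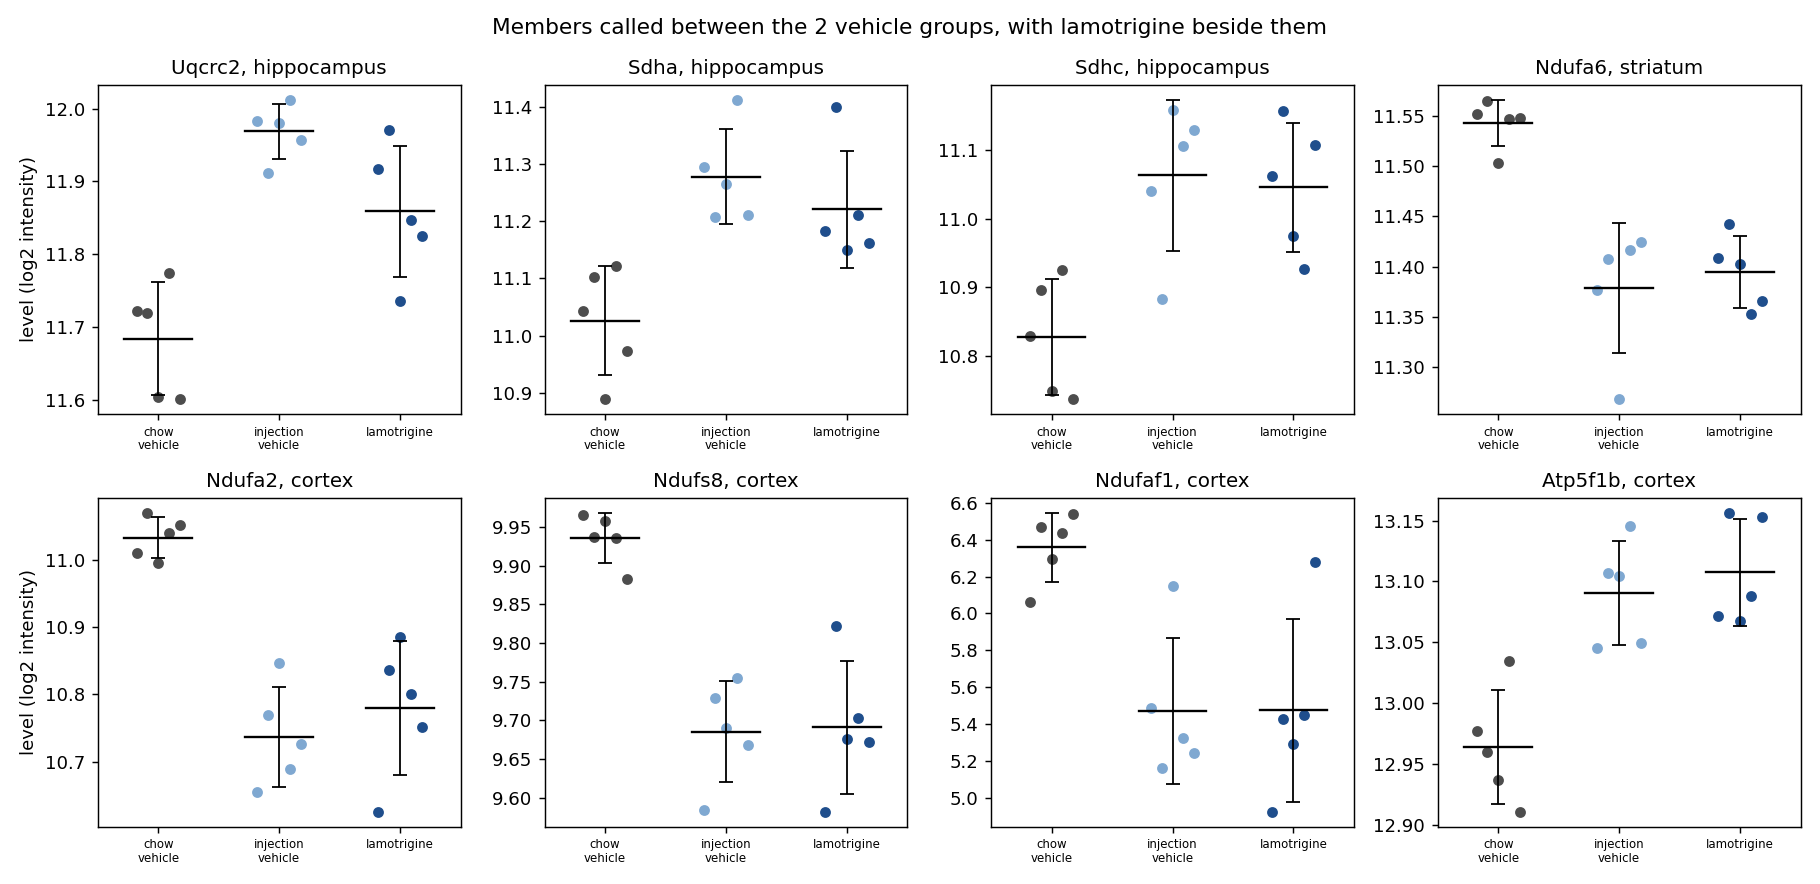
Log2 intensity of 8 members that differed between injection and chow vehicle, with the lamotrigine group of the same region (each point 1 array, n = 5, bar the mean and error bar the SD). In each panel the lamotrigine mean lies nearer to the injection vehicle than to the chow vehicle.

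The 3 regions were compared in the 30 vehicle arrays, 10 per region. Differences between regions were called more often than those between treatments, with 10 arrays a group in place of 5, and nearly all were small. Of the 90 members 73 were called in at least 1 of the 3 pairs of regions, 14 in all 3 and 17 in none. The same count was not made over all probe sets, so 73 is no trait of the members. A single pair of regions called 42.4% to 55.9% of all probe sets and 63.8% to 74.7% of bright ones. The median over members of the largest difference was 0.143, and Cox6a2 alone differed by 2-fold or more. Against the cortex, 42 members were called higher and 13 lower in the striatum, where 31.2% of all probe sets were called higher and 24.7% lower. In the hippocampus 43 (47.8%) were called higher and 10 (11.1%) lower than in the cortex, against 21.3% and 21.1% of all and 36.3% and 27.5% of bright probe sets. Between striatum and hippocampus 20 (22.2%) were called higher and 19 (21.1%) lower in the striatum. The shares were 27.4% and 23.5% of all and 30.1% and 42.9% of bright probe sets.

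These counts of calls differed between the arms, each with 5 vehicle arrays per region, and counts of calls are no test of a difference. The F test of whether the vehicle difference varied between regions called 1 of 90 members, against 1.88% of all probe sets. In that test 27 members had an unadjusted p under 0.05. In chow vehicle rats alone 14 members were called higher and 15 lower in the hippocampus than in the cortex, and in injection vehicle rats alone 40 and 2. Between striatum and hippocampus 27 were higher and 8 lower in chow vehicle rats, and 10 higher and 18 lower in injection vehicle rats. Between striatum and cortex the split was 28 and 13 in chow vehicle and 33 and 6 in injection vehicle rats. With array spread as a covariate the striatum held 48 higher and 5 lower than the cortex, and 31 higher and 12 lower than the hippocampus. Oligodendrocyte markers were higher in the striatum (7 of 7, median 0.95) and in the hippocampus (median 0.59) than in the cortex, and neuron markers were lower in the striatum than in the cortex in 9 of 10 cases (median -0.46). The part of these in the member differences was not tested.

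Promoters of 3 genes are shown because they had the largest regional differences among members that are minor forms or assembly factors, in the same layout as above. Cox6a2 lies at chr1:192219667-192219966 on the minus strand, Ndufa4l2 at chr7:65241919-65242218 on the plus strand and Ndufaf8 at chr10:105879658-105879957 on the plus strand. Cox6a2 held no match, Ndufa4l2 held YY1 and GC box matches and Ndufaf8 held GABPA and YY1 matches.
Cox6a2: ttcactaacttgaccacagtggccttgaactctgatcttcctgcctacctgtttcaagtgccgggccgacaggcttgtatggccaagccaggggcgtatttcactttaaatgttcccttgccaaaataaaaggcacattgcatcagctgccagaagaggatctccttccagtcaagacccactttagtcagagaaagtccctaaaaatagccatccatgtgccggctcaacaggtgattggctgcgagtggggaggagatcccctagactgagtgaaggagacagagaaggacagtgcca
Ndufa4l2: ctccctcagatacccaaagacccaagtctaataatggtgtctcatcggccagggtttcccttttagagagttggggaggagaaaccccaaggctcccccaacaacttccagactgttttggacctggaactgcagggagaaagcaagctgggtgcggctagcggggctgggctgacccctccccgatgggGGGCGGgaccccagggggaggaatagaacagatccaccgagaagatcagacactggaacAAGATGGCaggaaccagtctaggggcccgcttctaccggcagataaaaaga
Ndufaf8: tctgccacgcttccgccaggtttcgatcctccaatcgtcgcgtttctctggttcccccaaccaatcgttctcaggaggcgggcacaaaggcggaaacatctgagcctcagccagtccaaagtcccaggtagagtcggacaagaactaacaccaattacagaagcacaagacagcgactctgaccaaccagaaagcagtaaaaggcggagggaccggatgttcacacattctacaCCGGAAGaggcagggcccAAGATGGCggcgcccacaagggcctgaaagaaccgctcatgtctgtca

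Cox6a2, the heart and muscle form of a complex IV subunit, was highest in the cortex. The 10 vehicle arrays ranged from 6.42 through a median of 7.16 to 7.35 in the cortex, from 5.14 through 5.61 to 5.94 in the hippocampus, and from 5.24 through 5.51 to 5.67 in the striatum. All cortex arrays lay above all arrays of the other regions, which overlapped each other. The cortex mean of 7.01 compared with 5.58 in the hippocampus (2.68-fold, adjusted p = 2.82e-14) and 5.48 in the striatum (2.89-fold, adjusted p = 3.65e-16). Both lower means are under 6, where background can compress an intensity ratio, so the folds compare intensities and may understate the ratio of RNA. The general form Cox6a1 averaged 12.53 in the cortex, 12.43 in the hippocampus and 12.56 in the striatum.

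Ndufa4l2, a relative of the complex IV subunit Ndufa4 that is known to be induced by low oxygen, was ordered striatum, cortex, hippocampus. Its vehicle arrays ranged from 6.23 through 6.47 to 6.68 in the striatum, from 5.72 through 6.06 to 6.5 in the cortex and from 5.58 through 5.75 to 6 in the hippocampus. The striatum did not overlap the hippocampus (0.71, 1.63-fold, adjusted p = 1.05e-14), and neighbouring regions overlapped. Ndufa4 averaged 12.31 in both the striatum and the hippocampus and 12.12 in the cortex.

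Ndufaf8, an assembly factor of complex I, ranged from 9.14 through 9.31 to 9.48 in the striatum, from 8.60 through 8.91 to 9.04 in the cortex and from 8.63 through 8.74 to 8.91 in the hippocampus. The striatum stood apart from both other regions, 1.49-fold above the hippocampus (adjusted p = 3.39e-15) and 1.36-fold above the cortex (adjusted p = 1.56e-11). Ndufs3 ranged from 10.96 through 11.06 to 11.13 in the striatum, with a mean of 11.05 against 10.73 in the cortex (adjusted p = 1.12e-11) and 10.69 in the hippocampus (adjusted p = 2.31e-13). Sdhd averaged 11.21 in the striatum, 11.09 in the hippocampus and 10.86 in the cortex, with a striatum to cortex difference of 0.35 (adjusted p = 1.22e-15).

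Other members were lowest in the striatum. Sdhaf1, which helps to insert iron-sulfur clusters into complex II, averaged 9.62 in the striatum, 9.84 in the cortex and 10.03 in the hippocampus (striatum minus hippocampus -0.41, adjusted p = 1.39e-13). Ndufa5, an accessory subunit of complex I, averaged 9.88, 10 and 10.23 in the same order (-0.34, adjusted p = 1.76e-10), and Cox7a2l 11.09, 11.32 and 11.42 (-0.33).

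**Figure D4:**
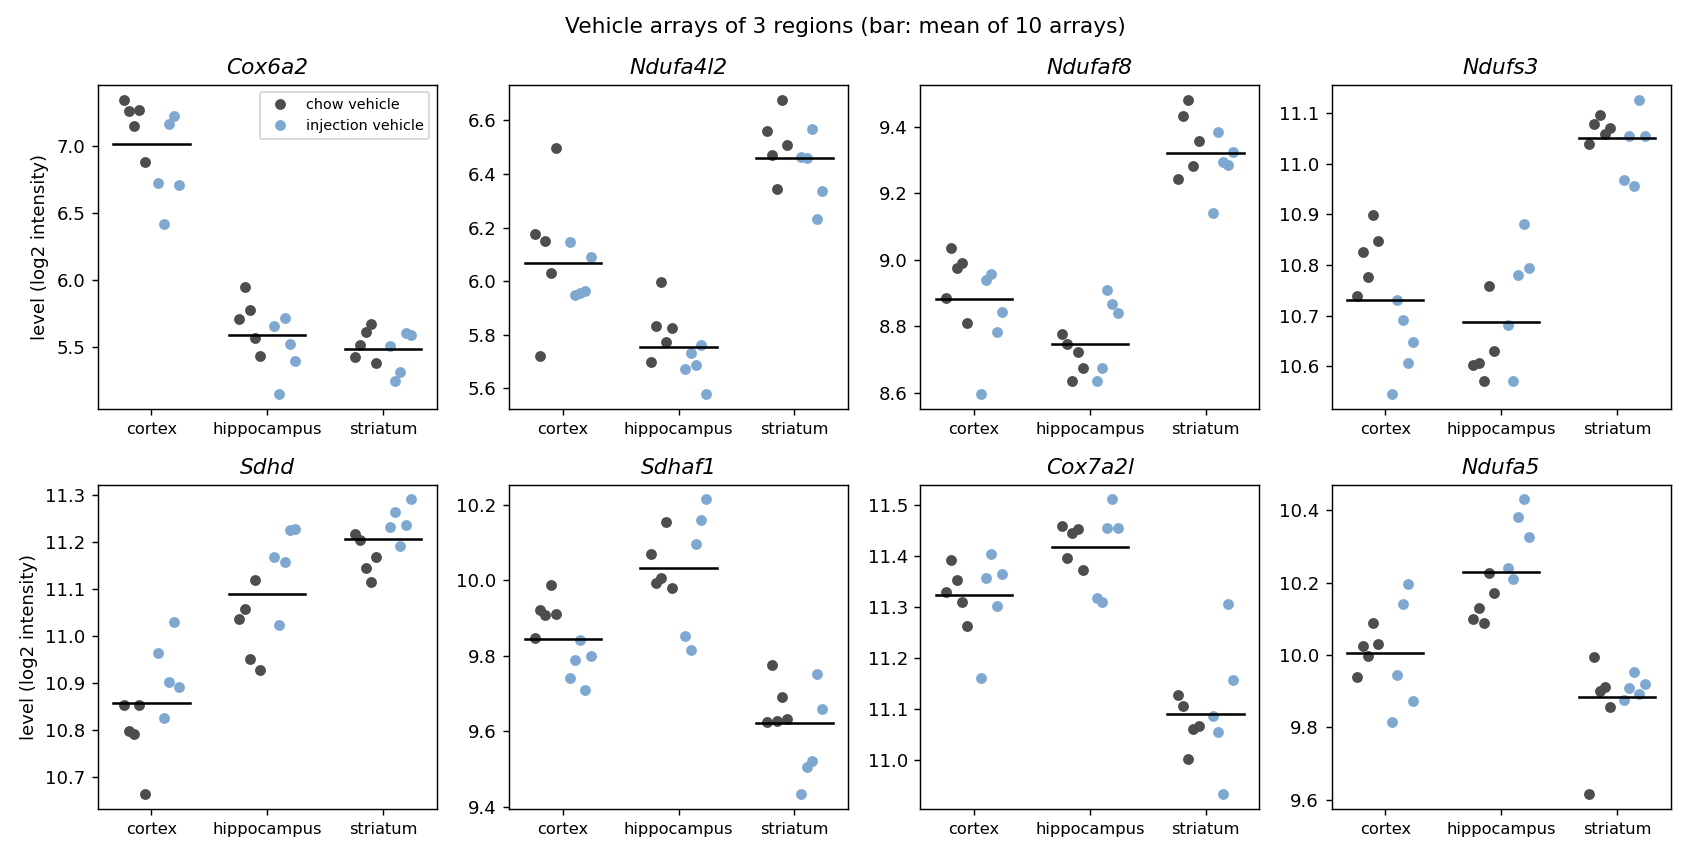
Log2 intensity of 8 members in the 30 vehicle arrays, by region; each point is 1 array (10 per region, both vehicles) and the bar is the mean. Cox6a2 separates the cortex (mean 7.01) from the other regions, and Ndufaf8 and Ndufs3 are highest in the striatum.

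Further members higher in the striatum than in the cortex were the complex I subunits Ndufb1 (0.31), Ndufb10 (0.31) and Ndufa3 (0.29), Atp5me (0.30) and Ndufaf4 (0.27), and lower ones were the ATPase inhibitor Atp5if1 (-0.17) and the F1 subunit Atp5f1d (-0.16). With the spread covariate Atp5f1d did not pass (adjusted p = 0.0829), and Atp5if1 had the opposite sign where its probe sets were averaged (0.02, and 0.03 for hippocampus minus cortex). Between hippocampus and cortex Sdhaf3 (0.24), Ndufa11 (0.24), Ndufaf3 (0.23) and Ndufb11 (0.22) were higher and Ndufa4l2 (-0.32), Atp5if1 (-0.14), Ndufaf8 (-0.13) and Cox4i1 (-0.10) were lower. In injection vehicle rats alone Atp5if1 (adjusted p = 0.168), Ndufaf8 (0.728) and Cox4i1 (0.130) did not pass, and in chow vehicle rats alone Sdhaf3 (0.14, adjusted p = 0.158) and Ndufa11 (0.08, adjusted p = 0.215) did not pass. Between striatum and hippocampus Ndufa6 (0.28), Cox7c (0.25), Ndufs4 (0.22) and Atp5me (0.18) were higher, and Sdhaf3 (-0.33), Sdhaf4 (-0.18), Uqcrc2 (-0.17), Atp5pd (-0.17) and Atp5f1d (-0.17) were lower. In chow vehicle rats alone Uqcrc2 (-0.06, adjusted p = 0.325) and Sdhaf4 (-0.08, adjusted p = 0.176) did not pass.

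Most minor forms had low levels in every region. Cox4i2, known as the lung form of Cox4i1, averaged 4.96 in the hippocampus, 5.08 in the cortex and 5.08 in the striatum, and Cox7a1, the muscle form of Cox7a2, 6.20, 6.13 and 5.99. Cox6b2, known from testis, averaged 5.34, 4.89 and 5.28. Dim as it is, it was called higher in the hippocampus than in the cortex (0.45), under all 8 alternatives. It was also called higher in the striatum than in the cortex, where 1 of 8 alternatives lost the call. The general forms Cox4i1 (13.06, 13.15 and 13.11), Cox6b1 (12.11, 12.05 and 12.05) and Cox8a (12.82, 12.81 and 12.91) moved by at most 0.10. Of the 3 genes for the c ring of ATP synthase only Atp5mc3 is a member, and it averaged 12.89, 12.77 and 12.83.

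Neighbouring pathways gave other counts in the same arrays. Of 16 tricarboxylic acid cycle genes 12 were lower in the striatum than in the hippocampus and 1 higher, Ogdh (0.35), with the pyruvate dehydrogenase gene Pdhx (-0.42) and Idh3g (-0.30) among the lower. Of 15 glycolysis genes 10 were lower in the striatum than in the cortex and 1 higher, Ldhb (0.15), with the brain hexokinase Hk1 (-0.65) and Pfkl (-0.51) first. Among bright probe sets 42.9% were called lower in the striatum than in the hippocampus and 39.7% lower than in the cortex, against 23.5% and 24.7% of all.

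Cox8b, the heart and muscle form of Cox8a, was singled out after its values were seen, because its spread was the largest of any member. In 52 of 60 arrays it lay between 4.59 and 5.31. In the 8 others it lay between 5.79 and 8.58, and these were the 8 arrays in which the mean of 8 markers of the choroid plexus, the epithelium that secretes cerebrospinal fluid, was above 7 (7.55 to 8.78, against 5.13 to 6.65 in the 52). In the hippocampus they were LiCl replicate 2 (5.98) and injection vehicle replicates 1 (6.17) and 3 (6.09). In the striatum they were LiCl replicates 1 (6.88) and 2 (5.79), injection vehicle replicate 2 (7.76) and lamotrigine replicates 3 (5.99) and 5 (8.58). No cortex array was among them.

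The other 89 members did not share this pattern. Between the arrays high in choroid plexus markers and the rest of the same region, their mean differences lay between -0.155 and 0.265 in the hippocampus (median 0.03) and between -0.303 and 0.175 in the striatum (median 0.01). Cox8b averaged 5.19 in the vehicle hippocampus, 4.85 in the cortex and 5.34 in the striatum, and the first and last of these means rest on such arrays.

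**Figure D5:**
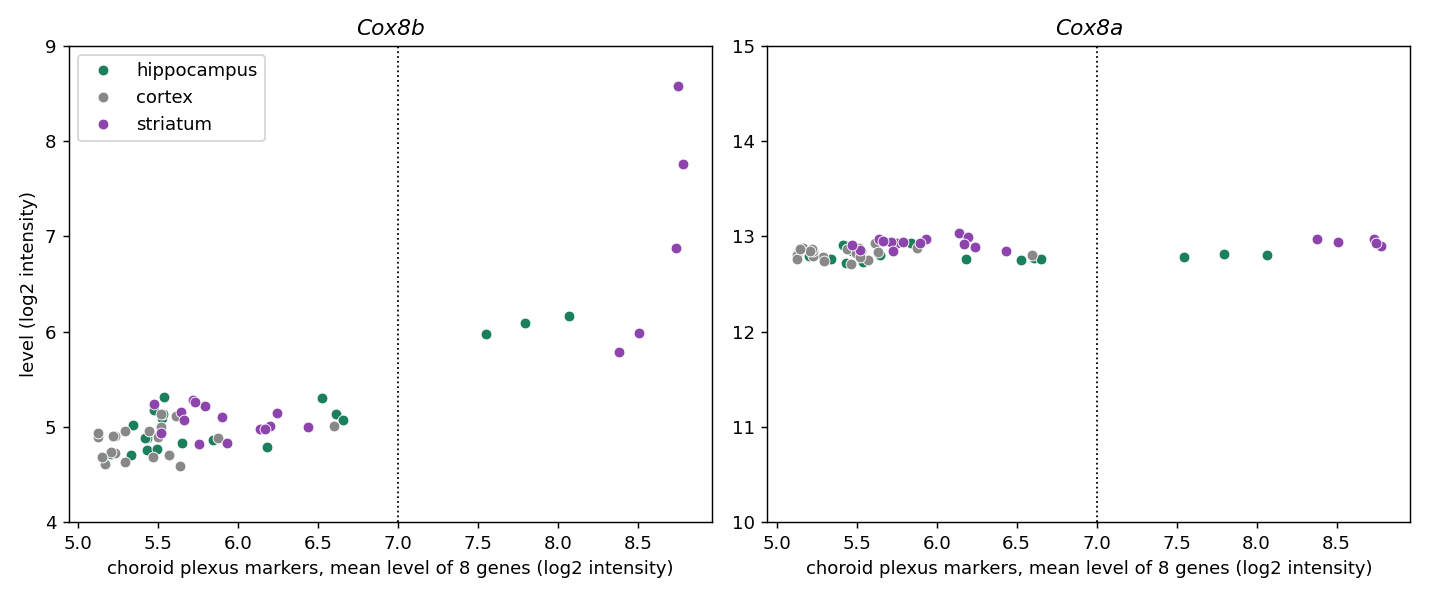
Log2 intensity of Cox8b and of its general form Cox8a against the mean log2 level of 8 choroid plexus markers in all 60 arrays (1 point per array); the dotted line stands at 7. All 8 arrays to the right of the line have Cox8b at 5.79 or more, all others at 5.31 or less, while Cox8a stays near its level in both.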

How the data were processed

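RNA levels were measured on 60 Affymetrix arrays, 5 in each of 12 groups taken from the labels. Total RNA was extracted, labelled as cRNA and hybridised, and per the submitters' processing notes the authors ran RMA in R 2.7.2, which corrects the background, normalizes arrays against each other and summarises the probes of each set. What was deposited is a linear intensity for every probe set, from 6.93 to 28582.45, with array medians from 93.8 to 101.4. Tests had been planned for log2 values, so each value was turned into its log2 without adding a pseudocount. Normalization between arrays can turn a difference in array spread into small differences that run one way in dim and the other way in bright probe sets. The number of arrays limits the precision.

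Of 31099 probe sets 57 controls were left out, and 31042 were tested. By the platform annotation 20826 carried 1 symbol, 436 several and 9780 none. The members, lists and tests were chosen with earlier results of these data known. Each region was fitted over its 20 arrays in limma 3.58.1 under R 4.3.3 (lmFit and eBayes, trend on), with 1 mean per group, after reading with version 1.17.8 of the data.table package. Regions, and the variation of an effect between regions, were fitted over all 60 arrays with the animal number as a random block (consensus correlation 0.133). Tests were two-sided, and p-values were adjusted by Benjamini and Hochberg over all probe sets. Nothing but the animal numbers says that samples of a group are separate animals, so p-values measure the spread between these samples. The code was tested on simulated data.

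Genes named were up to 10 called members with the largest rise and 10 with the largest fall in each comparison, the 3 with the smallest p where fewer than 3 were called, fixed core subunits and pairs of forms, and the members with extreme level or spread. Cox8b was followed up after its values were seen. Alternatives were quantile normalization, arrays centred on their medians, array spread as a covariate, no intensity trend, dim probe sets (mean under 6) left out, all probe sets of a gene averaged, the replicate number as a block, and each array left out. Leaving out the arrays high in choroid plexus markers, the gene lists under other scalings, the test of the vehicle difference between regions and leaving single arrays out of the tests between regions were chosen after seeing the data.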

Additional observations from a re-analysis of the deposited data

Results flagged for a closer look

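In groups of 5, Dixon's test marks an array whose gap to the nearest other array is more than 0.71 of the group's range. It was run on 51 sets of 5 arrays. These were the median over the members in each of the 12 groups, and otherwise a member named above in a group. Chance marks about 1 in 20, but Cox8b was included because of its large spread, so this rate does not hold for it. Both marked sets were of Cox8b in the striatum: injection vehicle replicate 2 at 7.76, with the next array at 5.14 (ratio 0.927), and lamotrigine replicate 5 at 8.58, with the next at 5.99 (ratio 0.739). Both arrays are among the 8 with a choroid plexus marker mean above 7.

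An F test of whether the LiCl difference varied between the hippocampus, the cortex and the striatum passed for 10 members. The adjusted p was 0.0109 for Ndufa2, 0.0124 for Atp5me, 0.0148 for Ndufaf3, 0.0223 for Sdhaf4, 0.0230 for Cox6c-ps1, 0.0241 for Ndufs3, 0.0356 for Sdhaf2, 0.0390 for Ndufa5, 0.0393 for Ndufa11 and 0.0406 for Ndufb3. For Sdhaf4 the differences were 0.19 in the hippocampus, -0.12 in the cortex and 0.07 in the striatum, and for Sdhaf2 0.14, -0.20 and 0.00. Ndufa5 differed by 0.08, -0.19 and 0.00 and Ndufb3 by 0.08, -0.09 and 0.04, while Cox6c-ps1 went the other way, at -0.16, 0.35 and -0.03. In 8 of the 10 the cortex value was negative and the hippocampus value positive. The same test of the vehicle difference passed for 1 member, Ndufs3, with adjusted p = 0.0452.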

How the results depend on the processing

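Limits come from 5 arrays a group, differences of the size of array-to-array scaling, and dim probe sets. For LiCl in the hippocampus and striatum and for lamotrigine, the counts of 0 members called stayed 0 under every alternative run. For LiCl in the cortex, 5 members were called: 0 with the spread covariate (3083 of all probe sets at an unadjusted p under 0.05, limma), 1 with quantile normalization, 3 without the intensity trend, 8 with dim probe sets left out, and 2 to 6 with 1 array left out. For the vehicles in the hippocampus the count of 15 became 1 with the spread covariate, 4 with arrays centred on their medians, 6 with quantile normalization, 7 without the trend, 5 without the arrays high in choroid plexus markers, and 5 to 20 with 1 array left out, where 20 was reached without injection vehicle replicate 2, and 1 of the calls was a fall, where there had been 0, with centred arrays, with quantile normalization, without the choroid-rich arrays and without injection vehicle replicate 3 or chow vehicle replicate 5. In the cortex the 25 became 16 without the trend (0 higher, 16 lower) and 18 to 22 with 1 array left out, and in the striatum the 3 became 2 to 4. Members called between hippocampus and cortex fell from 53 to 29 in chow vehicle rats alone. The 10 members whose LiCl difference varied between regions became 2 with quantile normalization, 5 with centred arrays, 5 without the animal block, 0 with the spread covariate, and 4 to 12 with 1 array left out. The cause of these changes was not tested.

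Replicate numbers are only shared numbers: deviations of same-numbered arrays correlated with r from -0.539 to 0.235. With the replicate number as a block, 11 members were called for LiCl in the cortex (2 higher, 9 lower), 7 for the vehicles in the hippocampus, 24 in the cortex and 3 in the striatum, and 0 for LiCl in the other regions and for lamotrigine. Of the results for single genes, 1181 kept their side of the threshold and direction, 174 lost the call and 5 turned: Sdhaf2 for LiCl in the hippocampus (-0.0185 with the spread covariate, -0.0276 with probe sets averaged), Atp5if1 in the striatum and hippocampus against the cortex (0.0241 and 0.0304 with probe sets averaged) and Ndufaf7 in the hippocampus against the cortex (0.0098 in injection vehicle rats alone).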
